A study of Bos taurus with 12 samples.

Results

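FOXP3, IL2RA, CTLA4 and IL10, 4 genes used to describe regulatory T cells, were followed in bovine endometrium sampled before embryo transfer. Every probe set that the array's annotation assigned to one of these symbols alone was taken, which gave 5 probe sets of 4 genes among 24016 probe sets tested. FOXP3, IL2RA and IL10 had 1 probe set each, and CTLA4 had 2, called here the brighter and the dimmer one by their mean signal. The genes were picked on earlier results from these same pools, their log2 signals by day and receptivity, so their contrasts are given as a description, with the standard error (SE) of each difference and no p-value.

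Total RNA came from the endometrium of Simmental heifers, and each of the 12 arrays carried 1 pool of RNA. The pools fell into 4 groups of 3: receptive endometrium on day 7 of the estrous cycle, non-receptive endometrium on day 7, receptive endometrium on day 3 and non-receptive endometrium on day 3. Receptivity is the label that the study attached according to pregnancy success after the transfer of in vivo produced embryos, and no group received a further treatment according to the labels. The labels give neither the age of the heifers, nor the number of animals in a pool, nor whether pools were made of different animals, so an SD or SE measures the spread between pools only.

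Regulatory T cells are a class of CD4 T cells that restrain other immune cells, and in mice they are needed in the uterus for tolerance of an embryo that carries paternal antigens. FOXP3 is the transcription factor that defines the lineage in mice and humans. The cells depend on IL-2, and IL2RA (CD25) is the chain that gives the IL-2 receptor its high affinity. CTLA4 binds CD80 and CD86 on antigen-presenting cells and so withholds them from CD28 on other T cells, while IL10 is a secreted cytokine that dampens macrophages and dendritic cells. None of these genes is private to regulatory T cells: activated T cells also carry IL2RA and CTLA4, and macrophages and B cells also make IL10.

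Values are log2 signals as deposited, with 0 as the lowest value possible, and 1 log2 unit is a 2-fold step. The arrays resembled each other in level, with medians between 6.64 and 6.76, and 257 to 450 probe sets per array lay at 0. Poly-A controls, added to the RNA before labelling, averaged 7.40 to 7.54 in pool 2 of the non-receptive day 7 group and of both day 3 groups, and 6.33 to 6.91 in the other 9 pools. FOXP3, IL2RA and the dimmer CTLA4 probe set sat in the low end of this scale. FOXP3 averaged 2.87 over the 12 pools, and 6.8% of all probe sets had a lower mean. IL2RA averaged 3.24, above 9% of probe sets. The dimmer CTLA4 probe set averaged 1.35, above only 1.2% of probe sets, and was listed at 0 in 5 of 12 pools. The brighter one averaged 4.79, above 23.6% of probe sets, and IL10 averaged 5.99, above 40% of them. FOXP3, IL2RA, IL10 and the brighter CTLA4 probe set had no value at 0 in any pool.

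The spread between pools of 1 group was widest near the floor. Among the 1056 probe sets with a mean between 2 and 3, the median within-group SD was 1.06 and 65.7% had at least 1 value at 0, whereas among those between 5 and 6 the median SD was 0.27 and 0.21% had a value at 0. FOXP3 lay in the first range but had a within-group SD of 0.27, and 0.1% of the probe sets of that range had a smaller one. IL2RA, with an SD of 0.64, was near the middle of its range, where 57% of probe sets had a smaller SD. The brighter CTLA4 probe set (0.37) and IL10 (0.24) also had ordinary spreads, with 54.9% and 38.8% of probe sets of their ranges below them. The dimmer CTLA4 probe set had an SD of 1.44, and 78.5% of its range had a smaller one.

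**Figure D1:**
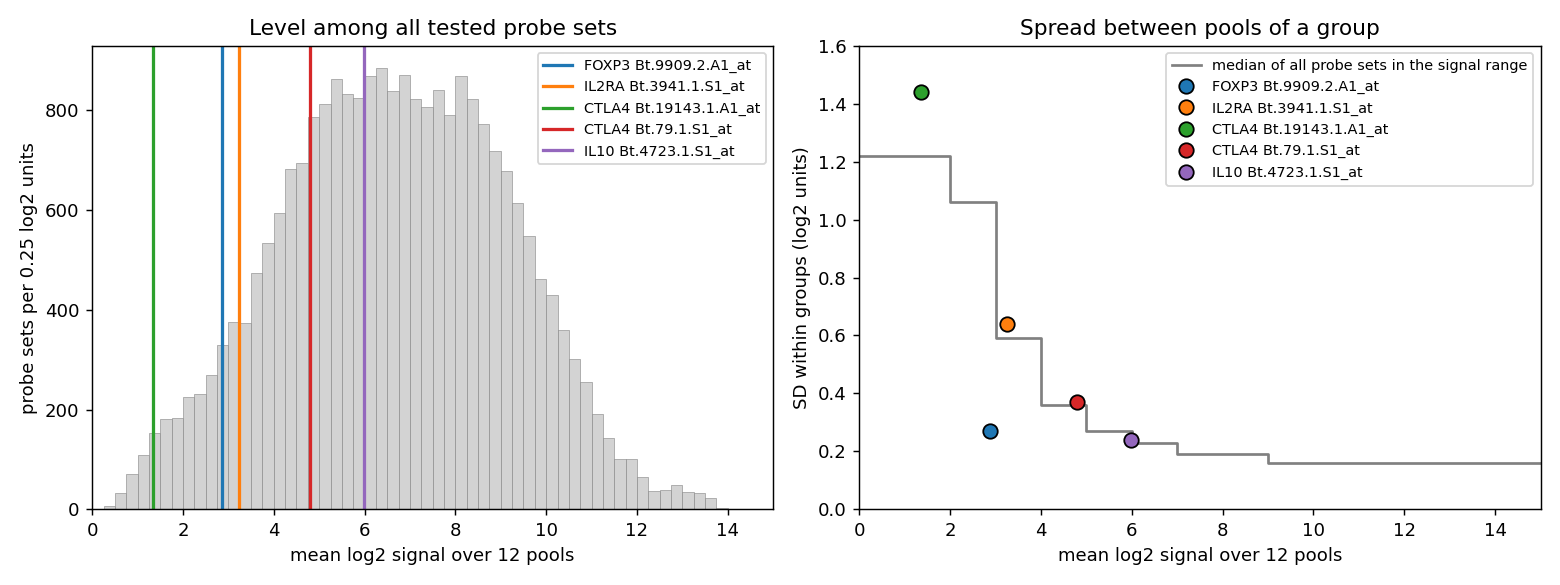
Left, the number of probe sets (y axis) by mean log2 signal over 12 pools (x axis), with a vertical line at each of the 5 probe sets, named by gene and array identifier. Right, the SD within groups in log2 units (y axis) against the same mean, where the grey line is the median of all probe sets in each signal range; FOXP3 (mean 2.87, SD 0.27) lies far under the line, at 1.06 there, and the other 4 lie close to it or, for the CTLA4 probe set with 5 values at 0, above it.

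FOXP3 was low in receptive endometrium on day 3 and lay between 2.88 and 3.97 everywhere else. On day 7 it was 3.15, 3.30 and 3.21 in the receptive pools and 2.88, 2.91 and 3.19 in the non-receptive pools. The receptive pools of day 3 had 1.93, 1.65 and 1.52, against 3.08, 3.64 and 3.97 in the non-receptive pools of that day. The receptive day 3 pools did not overlap with any other group, since their highest value lay 0.95 log2 units under the lowest value of the other 9 pools. The group means were 3.22 ± 0.08 in receptive and 2.99 ± 0.17 in non-receptive pools on day 7, and 1.70 ± 0.21 in receptive and 3.56 ± 0.45 in non-receptive pools on day 3 (SD, n = 3 each). In the order of levels, with receptive day 3 last, the other 3 groups overlapped with their neighbours.

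Between the receptivity groups, FOXP3 differed by -1.86 ± 0.21 (SE) on day 3, a 3.64-fold lower signal in receptive pools, and by 0.23 ± 0.21 on day 7. Between the days, it was higher on day 7 by 1.52 ± 0.21 in receptive endometrium, or 2.87-fold, and differed by -0.57 ± 0.21 in non-receptive endometrium, where the pools of the 2 days overlapped. The day change in receptive minus that in non-receptive endometrium was 2.09 ± 0.30. Averaged over receptivity, the day 7 minus day 3 difference was only 0.48 ± 0.15, the mean of 2 differences of opposite sign. These SEs, and the FOXP3 calls given below, rest on its within-group SD of 0.27. Only 0.1% of probe sets in its signal range had a smaller one.

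The size of these differences depends on how signals close to the floor are treated. When 16 was added to the linear signal before taking the logarithm, which compresses low values, the day 3 difference of FOXP3 was -0.54 and that between the day changes was 0.62. With 1 pool left out at a time, the day 3 difference ranged from -2.11 to -1.66.

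IL2RA had its highest level in receptive endometrium on day 7. It measured 4.83, 3.74 and 4.35 in receptive and 2.96, 2.09 and 2.87 in non-receptive pools of day 7, and these groups did not overlap. On day 3 the receptive pools had 3.56, 2.59 and 3.23 and the non-receptive pools 2.75, 2.03 and 3.88, which overlapped. The group means were 4.31 ± 0.55 in receptive and 2.64 ± 0.48 in non-receptive pools on day 7, and 3.13 ± 0.49 in receptive and 2.89 ± 0.93 in non-receptive pools on day 3 (SD, n = 3 each). In the order of levels, receptive day 7 was separated from its neighbour, receptive day 3, by 0.18, and the 3 lower groups overlapped. Receptive day 7 (lowest pool 3.74) did overlap with non-receptive day 3 (highest pool 3.88).

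The receptive minus non-receptive difference of IL2RA was 1.67 ± 0.48 (SE) on day 7, or 3.17-fold, and 0.24 ± 0.48 on day 3. The day 7 minus day 3 difference was 1.18 ± 0.48 in receptive and -0.25 ± 0.48 in non-receptive endometrium. Without 1 pool at a time, the day 7 difference ranged from 1.39 to 1.95 and the day 3 difference from -0.19 to 0.74. With 16 added to the linear signal the day 7 difference was 0.69. IL2RA thus had its highest mean in receptive pools of day 7, and FOXP3 its lowest in receptive pools of day 3. FOXP3 was clear of all other pools there, but IL2RA was not. Non-receptive day 3 pool 3 had an IL2RA signal of 3.88, above the 3.74 of receptive day 7 pool 2. Over the 12 pools the Pearson correlation of IL2RA and FOXP3 was 0.14, and after the group means were removed it was 0.36.

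The 2 CTLA4 probe sets gave different pictures. The brighter one was 4.32, 5.04 and 4.96 in receptive and 5.13, 4.26 and 5.32 in non-receptive pools on day 7. Its day 3 signals were 4.09, 4.23 and 4.6 in receptive and 5.27, 5.05 and 5.24 in non-receptive pools, which did not overlap. The difference between receptive and non-receptive pools was -0.88 ± 0.29 (SE) on day 3, a 1.84-fold lower signal in receptive pools, and -0.13 ± 0.29 on day 7. Across the days it differed by 0.47 ± 0.29 in receptive and -0.28 ± 0.29 in non-receptive endometrium. In the order of its levels, non-receptive day 3, non-receptive day 7, receptive day 7 and receptive day 3, every group overlapped with its neighbour.

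The dimmer CTLA4 probe set switched between the floor and measurable signal within groups. It was 0, 0.09 and 0 in receptive and 0, 2.59 and 3.07 in non-receptive pools on day 7. On day 3 it was 2.91, 0 and 1.61 in receptive and 2.30, 3.64 and 0 in non-receptive pools. A value of 0 occurred in each of the 4 groups, all groups overlapped, and the difference between receptive and non-receptive pools was -1.86 ± 1.06 (SE) on day 7 and -0.47 ± 1.06 on day 3. The correlation of the 2 CTLA4 probe sets over the 12 pools was -0.01, and the brighter one was used as the measure of CTLA4 in what follows.

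IL10, the best measured of the 4 genes, did not separate receptive from non-receptive endometrium on either day. On day 7 it was 6.12, 6.02 and 6.36 in receptive and 6.36, 6.03 and 6.25 in non-receptive pools. In the day 3 pools it was 6.10, 5.99 and 5.35 in receptive and 5.70, 5.85 and 5.74 in non-receptive pools. The receptive minus non-receptive difference was -0.05 ± 0.19 (SE) on day 7 and 0.05 ± 0.19 on day 3. The day 7 minus day 3 difference was 0.35 ± 0.19 in receptive endometrium, where the pools overlapped, and 0.45 ± 0.19 in non-receptive endometrium, where all pools of day 7 lay above all pools of day 3 by at least 0.18. Averaged over receptivity the difference was 0.40 ± 0.14.

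**Figure D2:**
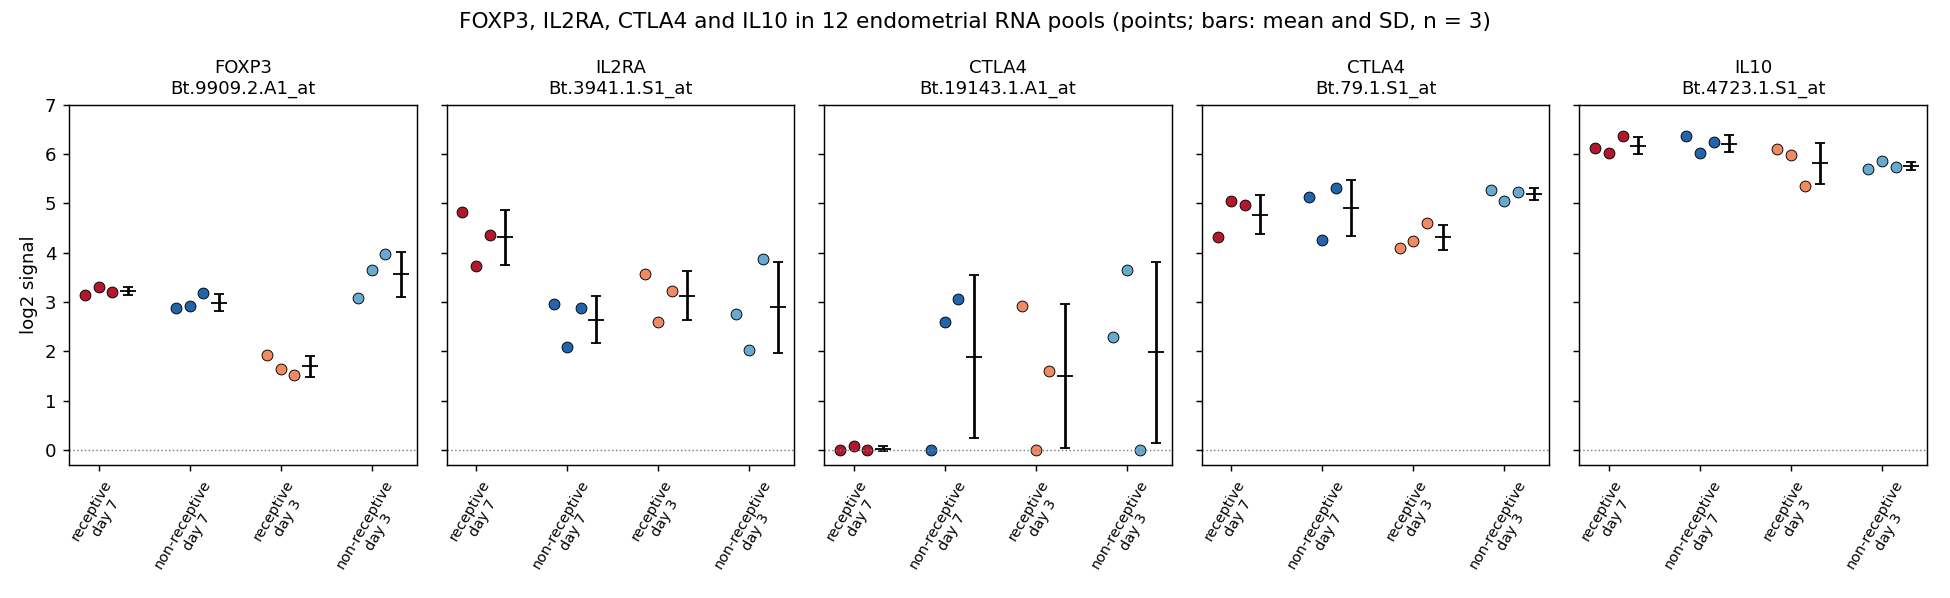
Log2 signal (y axis; dotted line, the floor of 0) of each probe set in every pool, by group, with the mean and SD of 3 pools beside the points. The 3 receptive day 3 pools of FOXP3 lie at 1.52 to 1.93, under all other pools at 2.88 to 3.97. The mean of IL2RA is highest in receptive day 7 pools (3.74 to 4.83), which overlap with non-receptive day 3 pools (up to 3.88). The dimmer CTLA4 probe set (middle panel) jumps between 0 and 3.64, and IL10 stays between 5.35 and 6.36.

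In a model fitted with limma to all 24016 probe sets, with Benjamini-Hochberg adjustment over all of them and a threshold of 0.05, 1 of the 5 probe sets was called between receptive and non-receptive endometrium on day 3, namely FOXP3 as lower in receptive pools. Of all probe sets, 0.0125% (3 of 24016) were called there, 0.00833% as lower. On day 7 none of the 5 was called, where 0% of all probe sets passed (0 of 24016, with 1396 at an unadjusted p under 0.05). Between day 7 and day 3 of receptive endometrium 1 of 5 was called, FOXP3 as higher, where 1.96% of all probe sets were called, 0.595% as higher. In non-receptive endometrium none of 5 was called against 2.48% of all, and for the average over receptivity none of 5 against 14.2%. In that last contrast FOXP3 was called with median centring and without non-receptive day 3 pool 3, and IL10 was called when only probe sets with a mean of at least 5 were tested. For the difference between the day changes none of 5 was called, and 0% of all probe sets (0 of 24016, with 813 at an unadjusted p under 0.05). Since the genes were proposed with these contrasts known, nothing is read from these counts. The day 3 call of FOXP3 was kept in 1 of 19 other settings, the one without non-receptive day 3 pool 1, was lost in 17 and was not tested in 1 that removed dim probe sets. The call between the days of receptive endometrium was kept in 13 of 18 settings, lost in 4 and not tested in 1. All settings refit the pools on which the genes were picked, so these counts describe the calls and are no support for them.

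Counted by pools that do not overlap, 2 of the 5 probe sets (FOXP3 and the brighter CTLA4 one) were lower in receptive than in non-receptive pools of day 3, where 6.24% of all probe sets were, and 1 (IL2RA) was higher on day 7, where 4% were. Between the days, 2 of 5 (FOXP3 and IL2RA) were higher on day 7 in receptive endometrium against 8.72% of all probe sets, and 1 of 5 (IL10) in non-receptive endometrium against 10.3%. The genes were picked on these same values, so nothing is read from these counts either. The median difference of the 5 probe sets between receptive and non-receptive pools was -0.05 on day 7 and -0.47 on day 3, beside -0.02 on day 7 and -0.01 on day 3 over all probe sets. The day 3 median is the value of the dimmer CTLA4 probe set, at 0 in 5 of 12 pools, and CTLA4 counts through 2 probe sets. On day 3, IL2RA (0.24) and IL10 (0.05) went the other way, so the median is not a shared shift.

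FOXP3 and CTLA4 had their lowest group in common, receptive endometrium of day 3, and correlated over the 12 pools with r = 0.66. After the group means were removed the correlation was 0.04. The corresponding values were 0.23 and 0.32 for FOXP3 with IL10. These correlations are descriptions over 12 pools that share 4 groups and, for the low genes, the noise near the floor.

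The T cell background of these genes was read from 5 markers of T cells in general. CD3E, a chain of the T cell receptor complex, was 6.90, 6.91 and 7.31 in receptive and 6.84, 7.11 and 7.18 in non-receptive pools on day 7. The day 3 values were 7.11, 7.40 and 7.31 in receptive and 7.29, 7.54 and 7.15 in non-receptive pools. The groups overlapped on both days, and the difference was 0.00 ± 0.16 (SE) on day 7 and -0.05 ± 0.16 on day 3, with an adjusted p of 0.986 on day 3. On day 3, CD3D, another chain of that complex, differed by -0.08 ± 0.16, and the adhesion molecule CD2 by -0.17 ± 0.23. CD4, the coreceptor of helper and regulatory T cells, differed by 0.02 ± 0.13 and the T cell kinase LCK by 0.13 ± 0.20. Each value is that of the gene's brightest probe set, and none of them passed the test. The day 7 differences were 0.06 ± 0.16 for CD3D, -0.12 ± 0.23 for CD2, 0.01 ± 0.13 for CD4 and 0.25 ± 0.20 for LCK. Dimmer probe sets went both ways on day 3, with overlap. That of CD4 was 4.79, 4.39 and 4.67 in receptive and 5.07, 5.40 and 4.57 in non-receptive pools. A dimmer one of LCK was 5.78, 6.56 and 6.02 in receptive and 6.12, 5.60 and 5.97 in non-receptive pools. In this bulk tissue, fewer cells of a type and less RNA per cell cannot be told apart.

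**Figure D3:**
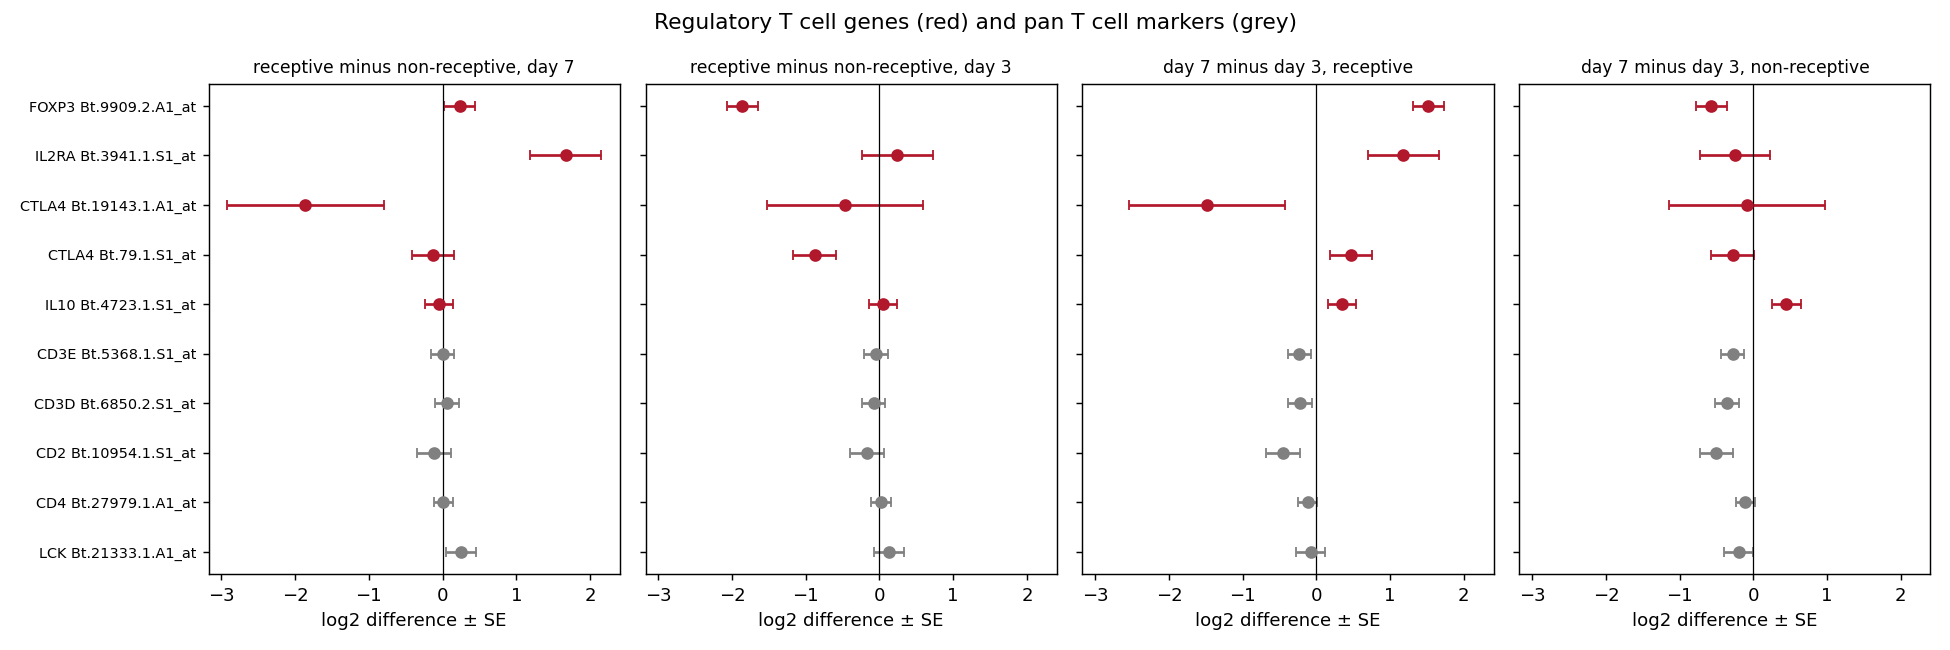
Log2 difference with its SE (x axis) of the 5 regulatory T cell probe sets (red) and the brightest probe set of each of 5 T cell markers (grey; y axis), in 4 contrasts. On day 3 FOXP3 lies at -1.86 and the brighter CTLA4 probe set at -0.88, while CD3E, CD3D, CD2, CD4 and LCK lie between -0.17 and 0.13.

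Of a list of 18 pan T cell genes, 14 were measured. Here and in the lists below, a gene was counted if any of its probe sets passed. The shares of all probe sets beside such counts are of single probe sets, so the 2 are not counted alike. Between receptive and non-receptive pools, none of the 14 passed in either direction on day 7 or on day 3, with median differences of 0.03 on day 7 and -0.02 on day 3. At an unadjusted p under 0.05, 1 gene was lower on day 7 and 0 on day 3. The mean level of the list was 6.01 to 6.40 in receptive and 6.0 to 6.26 in non-receptive pools on day 7, and 6.37 to 6.65 in receptive and 6.39 to 6.66 in non-receptive pools on day 3. Between the days, averaged over receptivity, 0 of 14 rose and 2 fell on day 7, where 4.76% of all probe sets rose and 9.44% fell. At its brightest probe set PTPRC (CD45), found on all white blood cells, fell by 0.72 (adjusted p = 0.0156). ZAP70, a kinase of T cell receptor signalling, fell by 0.58 (adjusted p = 0.0358). The other PTPRC probe sets, with differences of -0.51 and, at a mean of 2.67, of 0.40, did not pass. The median day 7 minus day 3 difference of the list was -0.27, beside -0.05 over all probe sets and 0.48 for FOXP3. In receptive pools alone the list had a median of -0.25 and FOXP3 a difference of 1.52, and in non-receptive pools the list had -0.37 and FOXP3 -0.57.

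Of 21 further surface and cytokine genes of regulatory T cells, 13 were measured. TNFRSF18 (GITR), a costimulatory receptor that regulatory T cells carry at high level, was 7.95, 8.88 and 6.38 in receptive and 6.79, 5.78 and 6.47 in non-receptive pools on day 7. In day 3 pools it had 7.15, 8.10 and 5.68 in receptive and 6.66, 6.64 and 7.05 in non-receptive pools. The receptive pools scattered widely and overlapped with the non-receptive pools on both days, and the difference of 1.39 ± 0.68 (SE) on day 7 did not pass (adjusted p = 0.821). No gene of the list passed between receptive and non-receptive pools, with median differences of -0.17 on day 7 and -0.01 on day 3. Unlike TNFRSF18, 9 of the 13 were lower in receptive pools on day 7 and 4 were higher. On day 3, 7 were lower and 6 higher. At an unadjusted p under 0.05, 2 were lower and 0 higher on each day. The lowest unadjusted p on day 3 belonged to the probe sets of NT5E (CD73), an enzyme that makes adenosine outside the cell, which differed by -0.88 ± 0.36 at the brighter and -0.94 ± 0.39 at the dimmer one, with adjusted p = 0.936 for both.

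Between the days, 0 of these 13 rose and 2 fell on day 7, where 4.76% of all probe sets rose and 9.44% fell. Of the 13 genes, 8 had a higher and 5 a lower value on day 7, with a median difference of 0.02. IL12A, a subunit that IL-12 and IL-35 share, averaged 2.81 ± 0.96 on day 7 and 3.97 ± 0.83 on day 3 (SD, n = 6 each), and fell by 1.16 (adjusted p = 0.0347). GZMB (granzyme B), a protease of cytotoxic cells that regulatory T cells can also use, averaged 3.85 ± 0.81 on day 7 and 5.33 ± 0.34 on day 3, and fell by 1.48 (adjusted p = 0.0174). EBI3, the partner of IL12A in IL-35, differed by -0.27 ± 0.09 and did not pass (adjusted p = 0.0689).

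Of 22 transcription factors tied to regulatory T cells, 7 had a probe set with a single symbol, and 0 of 7 passed in either direction in the contrast of the days or in those of receptivity. IKZF2 (Helios), which marks a large part of these cells in mice, was not matched. BATF, a partner of AP-1 factors, had 2 probe sets that disagreed on day 7, at 0.96 ± 0.35 for the dimmer and -0.12 ± 0.16 for the brighter one. On day 3 the dimmer one had -0.47 ± 0.35 and the brighter one -0.40 ± 0.16. PRDM1 (Blimp-1), which in mice is needed for IL10 in effector regulatory T cells, differed by 0.76 ± 0.30 on day 7 at its dimmest probe set (adjusted p = 0.821), and by 0.25 ± 0.45 and 0.22 ± 0.42 at the other ones.

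The receptors and ligands that work with the 4 genes were taken next. IL2RG, the common chain of the IL-2 receptor, was between 5.38 and 6.15 in every pool. It differed between receptive and non-receptive pools by -0.16 ± 0.17 (SE) on day 7 and -0.09 ± 0.17 on day 3. IL2 itself averaged 1.98 with 1 pool at 0, and IL2RB was not matched. In the IL-2 pathway list, 7 of 13 genes were measured and 0 of 7 passed in each direction in the contrasts of days and of receptivity, although all 7 had a negative receptive minus non-receptive difference on day 3, with a median of -0.15 and 0 at an unadjusted p under 0.05.

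CD80 and CD86, which both bind CTLA4, also did not pass. CD86 was 6.34, 6.20 and 5.52 in receptive and 5.95, 4.72 and 6.67 in non-receptive pools on day 7, and differed by 0.24 ± 0.42 (SE) on that day and by 0.21 ± 0.42 on day 3. The brighter CD80 probe set differed by 0.08 ± 0.15 on day 7 and by -0.16 ± 0.15 on day 3. For the CTLA4 ligands and costimulation list, 6 of 8 genes were measured and 0 of 6 passed in either direction in any of these contrasts, with medians of 0.08 between receptive and non-receptive pools on day 7 and -0.20 on day 3.

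IL10RA, the ligand-binding chain of the IL-10 receptor, was 7.67, 6.16 and 6.42 in receptive and 6.29, 6.38 and 6.65 in non-receptive pools on day 7, with 1 receptive pool above all others. Its day 3 values were 6.10, 6.07 and 5.96 in receptive and 5.86, 5.65 and 6.31 in non-receptive pools. The day 7 minus day 3 difference averaged 0.60 ± 0.24 (SE), in the same direction as that of IL10, and did not pass (adjusted p = 0.121). IL10RB, the second chain of that receptor, lay between 9.79 and 10.26 in every pool. Of 13 genes in the IL-10 pathway list 6 were measured, and 0 of 6 passed in either direction in the contrasts of days or receptivity. Of 12 genes of the TGF-beta route, which induces FOXP3 in mouse and human T cells, 9 were measured and 0 of 9 passed. TGFB3 had the lowest unadjusted p of that list on day 3, with a difference of -0.65 ± 0.23 and an adjusted p of 0.936.

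Markers of other immune cells were set beside these values. In the contrasts of receptivity, 0 of 10 measured genes of other T helper lineages, 0 of 8 NK and cytotoxic genes, 0 of 8 macrophage and dendritic cell genes and 0 of 4 B cell genes passed in either direction on day 7 or day 3. Between the days, 3 of 8 macrophage and dendritic cell genes rose and 0 fell on day 7, where 4.76% of all probe sets rose. Over the 8 genes, 4 had a higher and 4 a lower value on day 7, CSF1R, the receptor for a macrophage growth factor, among the lower ones at -0.53 ± 0.28 (SE; adjusted p = 0.233). CD68 averaged 8.78 ± 1.0 on day 7 and 6.61 ± 0.16 on day 3 (SD, n = 6 each; difference 2.17, adjusted p = 0.0103). CD83, a surface protein of mature dendritic cells, rose by 0.65 at its brighter probe set (adjusted p = 0.0104). CD14, a receptor for bacterial lipopolysaccharide, rose by 0.89 at its dimmer probe set (adjusted p = 0.026), while the brighter one had 0.93 and did not pass (adjusted p = 0.147). IL10, which macrophages also make, moved by 0.40 ± 0.14 between the same days, and whether macrophages had a part in this was not tested.

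Of the 8 NK and cytotoxic genes, 0 rose and 3 fell on day 7, GZMB among them, where 9.44% of all probe sets fell. GNLY (granulysin) fell by 2.07 (adjusted p = 0.00451), and PRF1 (perforin) fell by 0.68 (adjusted p = 0.0333). FASLG (Fas ligand) had a difference of 1.01 ± 0.32 (SE) at its brighter probe set and -0.08 ± 0.32 at its dimmer one, and neither passed. Of the 4 B cell genes, MS4A1 (CD20) had a day 7 minus day 3 difference of -3.37 at its dimmer probe set (adjusted p = 0.00624) and of -0.60 at its brighter one (adjusted p = 0.0116). CR2 (CD21) rose by 0.69 at its brighter probe set (adjusted p = 0.0114), whereas the dimmer one had a difference of -1.12 and did not pass (adjusted p = 0.12). Of 12 endometrial tissue markers measured, 0 rose and 4 fell on day 7, namely CDH1, HOXA10, COL3A1 and ESR1, where 9.44% of all probe sets fell. CDH1 (E-cadherin) passed at its dimmer probe set, with a difference of -0.70, whereas the brighter one had -0.22 and did not pass (adjusted p = 0.151).

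The 5 genes whose pattern was most like that of each regulatory T cell gene were taken by Pearson correlation over the 12 pools, from 10479 probe sets of named genes with a mean of at least 5 and no value at 0 (10478 for IL10). For FOXP3 they were XPO4 (r = 0.87), SNX12 (0.84), LOC503858 (0.79), ADPRS (0.79) and HID1 (0.76). With group means removed, these correlations ranged from -0.02 for ADPRS to 0.58 for SNX12. For IL2RA they were KRTCAP2 (0.90), CDH16 (0.89), TMC6 (0.89), SYAP1 (0.86) and UBE2Z (0.85), and for the brighter CTLA4 probe set MRPS2 (0.90), CD209 (0.90), TSPY (0.88), ELAVL4 (0.87) and IL7 (0.86). For IL10 they were CDK10 (0.89), UNC45B (0.88), GDF7 (0.88), SLC5A1 (0.87) and CRYBB2 (0.86). None of the genes most like one of the 4 appeared among those most like another. Lists of 5 from so many candidates would seldom share a gene, so nothing is read from this. FOXP3, IL2RA and CTLA4 had means under 5 and so could not be candidates themselves.

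A measure of RNA quality separated receptive from non-receptive pools on both days. FOXP3 and the brighter CTLA4 probe set did so on day 3 alone, and IL2RA on day 7 alone. On these arrays the actin control is probed at its 3′ and 5′ ends, and the gap between them grows as RNA is shortened. The gap was 1.25, 0.96 and 0.82 log2 units in receptive and 0.45, 0.02 and 0.63 in non-receptive pools on day 7. The day 3 gaps were 3.11, 1.05 and 1.8 in receptive and 0.49, 0.48 and 0.93 in non-receptive pools. Receptive pools thus had the larger gap on both days, and the receptive pools of day 3, in which FOXP3 was lowest, held the largest one. The receptive day 3 pool with a gap of 1.05 had a FOXP3 signal of 1.65, while receptive day 7 pools with gaps of 0.82 to 1.25 had 3.15 to 3.30, and the pool with the largest gap, 3.11, had the highest FOXP3 signal of its group, 1.93. Without that pool the day 3 difference of FOXP3 was -1.98. On day 7 the gaps of receptive and non-receptive pools did not overlap either, and IL2RA was separated between the same pools, as was the brighter CTLA4 probe set on day 3. The part of RNA quality in the differences of FOXP3, IL2RA and CTLA4 was not tested.

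**Figure D4:**
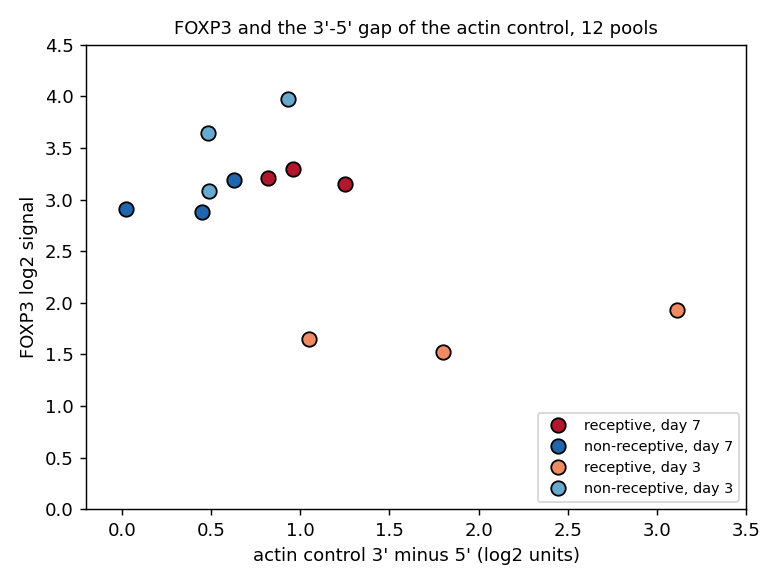
FOXP3 log2 signal (y axis) against the 3′ minus 5′ gap of the actin control in log2 units (x axis), 1 point per pool, coloured by group. The 3 receptive day 3 pools lie at 1.52 to 1.93 with gaps of 1.05 to 3.11, under the receptive day 7 pools at 3.15 to 3.30 with gaps of 0.82 to 1.25; all non-receptive pools have gaps of 0.02 to 0.93.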

How the data were processed

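The values of 12 Affymetrix bovine arrays were read as deposited by the authors, as log2 signals from 0 to 14.06. Of the tools, GCOS (1.1.1), Affymetrix Expression Console and PLIER are named by the submitters' processing notes, without settings. The sources used here do not give how the floor of 0 arose. No genome build is named, so no coordinates are given. The number of pools limits the precision. Genes were named from the array's annotation, in which 13292 tested probe sets had 1 symbol, 86 had several and 10638 had none, and only those with 1 symbol were named.

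Control probe sets (112 of 24128) were left out. A linear model with 1 mean per group was fitted to the other 24016 with limma 3.58.1 in R 4.3.3 (lmFit and eBayes, two-sided), without further normalisation, filter or block, and p-values were adjusted by Benjamini-Hochberg. The contrasts were receptive minus non-receptive on each day, day 7 minus day 3, and the difference between the day changes. The scripts were tested on simulated data. Alternatives were median centring, quantile normalisation, 16 added to the linear signal, a mean of at least 5, no value at 0, pool number as a block, the 2 groups alone and each pool left out.

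The 4 genes and the gene lists were chosen with earlier results of these data known. Named genes were all probe sets of the 4 genes, listed genes that passed (at most 6 per list), otherwise the 2 with the lowest p, fixed T cell markers, receptors and ligands, and the 5 genes most like each of the 4. EBI3, IL2 and TNFRSF18 are named beyond that rule, after their values were seen. CSF1R and FASLG, which did not pass between the days, also lie outside it.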

Additional observations from a re-analysis of the deposited data

Results flagged for a closer look

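For 2 probe sets of the gene lists, receptive and non-receptive endometrium, or both days, moved in opposite directions with no overlap between pools. IL13, a cytokine of type 2 helper T cells, averaged at its brighter probe set 4.74 in receptive and 4.49 in non-receptive pools on day 7, and 4.36 in receptive and 4.96 in non-receptive pools on day 3. The difference between its day changes was 0.86, and by limma the test of that difference did not pass (adjusted p = 0.999). GNLY, the cytotoxic protein granulysin, averaged 5.48 in receptive and 3.31 in non-receptive pools on day 7, and 5.98 in receptive and 6.95 in non-receptive pools on day 3. The difference between its day changes was 3.13 and did not pass either (adjusted p = 0.997). The dimmer IL13 probe set had a difference between day changes of 0.32.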

How the results depend on the processing

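Adding 16 to the linear signal moved 6 differences of the regulatory T cell probe sets by more than the spread between pools: FOXP3 then had differences of 0.08 between the days, -0.54 between receptive and non-receptive pools on day 3 and 0.62 between the day changes, IL2RA had 0.69 on day 7 and 0.64 between the day changes, and the dimmer CTLA4 probe set had -0.30 on day 7. The block and both filters leave these differences as they are by construction, and so does leaving out a pool of a group outside the contrast. The day 3 count of 3 probe sets became 1 with median centring, 1 with quantile normalisation and 0 with 16 added, with a mean of at least 5, with no value at 0 or with the block, and the day 7 count of 0 became 1 with the 2 groups alone. With median centring, 50.6% of the calls between the days were higher on day 7, with quantile normalisation 44.1% and as deposited 33.5%. The FOXP3 call between the days of receptive endometrium was lost with 16 added and without receptive day 3 pool 1, receptive day 3 pool 3 or receptive day 7 pool 2.

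Leaving out 1 pool at a time gave 1861 to 3617 probe sets between the days (main 3412; lowest without non-receptive day 3 pool 1), 0 to 2 between receptive and non-receptive pools on day 7 (highest without non-receptive day 7 pool 2), 0 to 5 on day 3 (0 without receptive day 3 pool 1, 5 without receptive day 3 pool 2) and 0 to 2 between the day changes. The 15 listed genes called between the days became 7 to 18, with 7 without non-receptive day 3 pool 1.

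Pools with the same number in different groups did not deviate together: their deviations from the group means correlated between -0.179 and 0.136 (18 pairs, 3 above 0.1), and the numbers were not taken to pair the pools. With pool number as a replicate block, 3029 probe sets were called between the days and 0 between receptive and non-receptive pools on day 3. Signal near the floor limits FOXP3, IL2RA and the dimmer CTLA4 probe set, and 3 pools per group limit all values.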
